A study of Mus musculus with 56 samples.

Results

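Tumor epithelial cells with transcripts of Cdkn1c were set against tumor cells without them, in single-cell RNA-seq of colon tumors from 1 mouse. Cells were selected on their measured Cdkn1c value, at 1 TPM (a transcript's share of the cell's transcripts, scaled to a fixed total) or more, which put 17 of 50 cells in the group with Cdkn1c and 33 in the group without. The 50 cells came from 56 libraries, because 6 pairs of libraries with nearly the same profile were averaged as 1 cell each. According to its title, the study concerned PROX1, chemoresistance, recurrence and quiescent colon cancer stem cells, and Cdkn1c encodes a protein that halts the cell cycle.

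Both groups came from the same male ApcMin/+ mouse, whose Min allele truncates Apc, the scaffold that marks beta-catenin for degradation. The mouse received 2% dextran sulfate sodium (DSS), which injures the colonic epithelium, in its drinking water for 5 days from 10 weeks of age, and the labels give an age of 12 weeks. After digestion, 3 tumors were pooled, and the single-cell sort took DAPI-Cd31-Cd45-Epcam+Cd24+ cells, that is, living epithelial cells carrying Cd24 and free of the endothelial and leukocyte antigens. The cDNA was made by the Bead-seq method, and cDNA that gave an Lgr5 product in a 32-cycle PCR went on to Nextera XT libraries. All cells therefore share the Apc mutation, the DSS and the Lgr5 selection, the pooled tumors cannot be told apart, and cells of 1 mouse are no replicates. The ± values are SDs over cells, differences between groups were described without a test, and fewer transcripts in a cell cannot be told apart from poorer capture of them.

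Cdkn1c encodes p57 (Kip2), which with p21 (Cdkn1a) and p27 (Cdkn1b) forms the CIP/KIP family of inhibitors that bind complexes of cyclins and cyclin-dependent kinases and hold cells before DNA replication. The gene is imprinted, so that the copy inherited from the mother is the active one, and lies in a cluster of imprinted genes governed by the noncoding RNA Kcnq1ot1. In the mouse intestine, p57 is known from cells that leave or rest outside the division cycle, and stem cells of several other tissues need it to stay quiescent.

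Cdkn1c (ENSMUSG00000037664) is annotated at chr7:143458339-143461050 on the minus strand of GRCm38 and overlaps the antisense gene Gm44732. The sources used here do not say whether counting used strand, so reads of the 2 genes may not be separable. Its level in the 17 cells was 577, 130.73, 78.19, 72.01, 42.86, 39.67, 33.23, 29.26, 26.42, 15.66, 15.05, 7.17, 5.84, 3.34, 2.93, 1.55 and 1.16 TPM. One cell therefore stood far above the rest, and the median was 26.42 TPM. The cells just inside the threshold were those at 1.16 and 1.55 TPM, and just outside it were 33 cells listed at 0, with 0 cells between 0 and 1 TPM. The share with Cdkn1c was 34% (exact 95% Clopper-Pearson interval 21.2% to 48.8%, counting error over cells only).

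**Figure D1:**
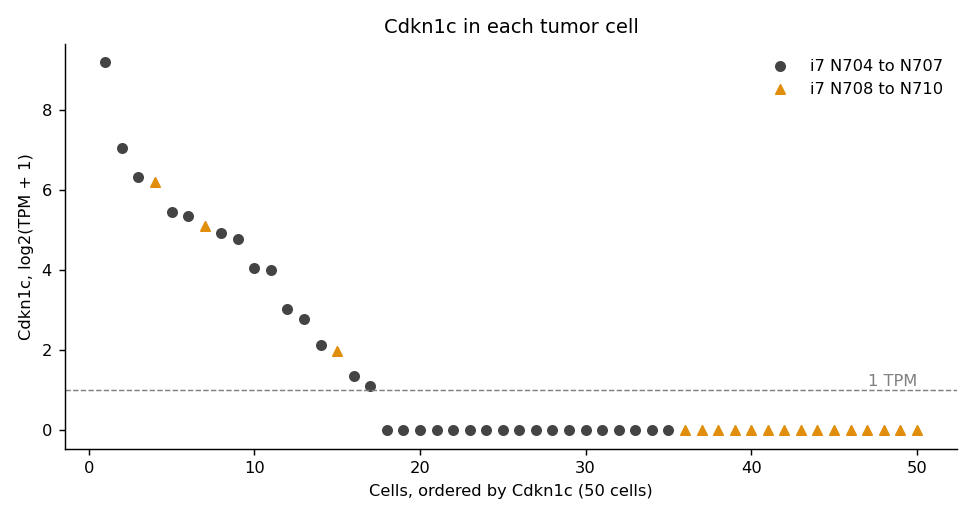
Cdkn1c in log2(TPM + 1) in each of 50 cells, ordered by level, with circles for libraries of i7 indexes N704 to N707 and triangles for N708 to N710. The 17 cells above the dashed line range from 1.16 to 577 TPM, and 3 of them are triangles.

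In the pairs of libraries averaged as 1 cell, which were chosen for their like profiles (Pearson's r 0.957 to 0.992), Cdkn1c was 32.07 and 34.39 TPM in 1 pair and 0 in both libraries of the other 5. Detection went with the i7 index, the sequence tag that names a library on the sequencer. It was 14 of 32 cells for N704 to N707 (43.8%, 26.4% to 62.3%) and 3 of 18 for N708 to N710 (16.7%, 3.58% to 41.4%), and 6 of the 8 cells of N705 had Cdkn1c. The 577 TPM cell carried N705 too. Of the 13 other cells that shared an i7 or i5 index with it, 6 had Cdkn1c, against 10 of 36 that shared none. The 2 indexes differed: with the 577 TPM cell counted, 6 of 8 cells of N705 had Cdkn1c, but 2 of 7 of its i5 index N503. Without N705 the share was 11 of 42 cells (26.2%). Whether the index played a part in detection was not tested, so values in the 2 i7 groups are given beside many of the results.

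Genes per cell at 1 TPM or more were 5855 ± 554 (5054 to 7234) with Cdkn1c and 5746 ± 1136 (1316 to 7172) without, so the groups overlapped. The cell at 1316 genes lacked Cdkn1c and had 85.1% of its TPM in Gm10925. Read depth is unknown, since TPM keep none. Epcam, the sort antigen, was found in all 50 cells at 1 TPM or more, at medians of 346 TPM with Cdkn1c and 320 without, and the endothelial Pecam1 (Cd31) and the leukocyte Ptprc (Cd45) reached 1 TPM in 0 cells. Lgr5, the crypt stem cell receptor for R-spondins by which the cDNA had been chosen, reached 1 TPM in 11 of the 17 cells and 27 of the 33.

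Across 9165 genes that reached 1 TPM in 20% of cells, 437 had a mean log2(TPM + 1) at least 1 higher with Cdkn1c (4.77% of genes) and 281 at least 1 lower (3.07%). A difference of 1 stands for a fold of 2 on this scale, which understates the change of low genes. The median difference over all genes was 0.089 with an SD of 0.56, and 0 genes had groups that did not overlap. These calls moved with single cells: leaving out any 1 cell kept 234 of the higher and 174 of the lower genes at the fold, and leaving out N705 kept 291 and 199. Without the cell of 1316 genes, the split turned from 437 higher and 281 lower to 341 and 356. The sign was the same in both i7 groups for 356 of the higher and 225 of the lower genes. Genes named below as highest and lowest are the extremes of the very contrast that the cells were chosen on, and their values are a description. They were kept only with the same sign in both i7 groups, so their shared sign there was fixed by the choice. Nothing here shows that the counts past the fold exceed what cells grouped at random would give.

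**Figure D2:**
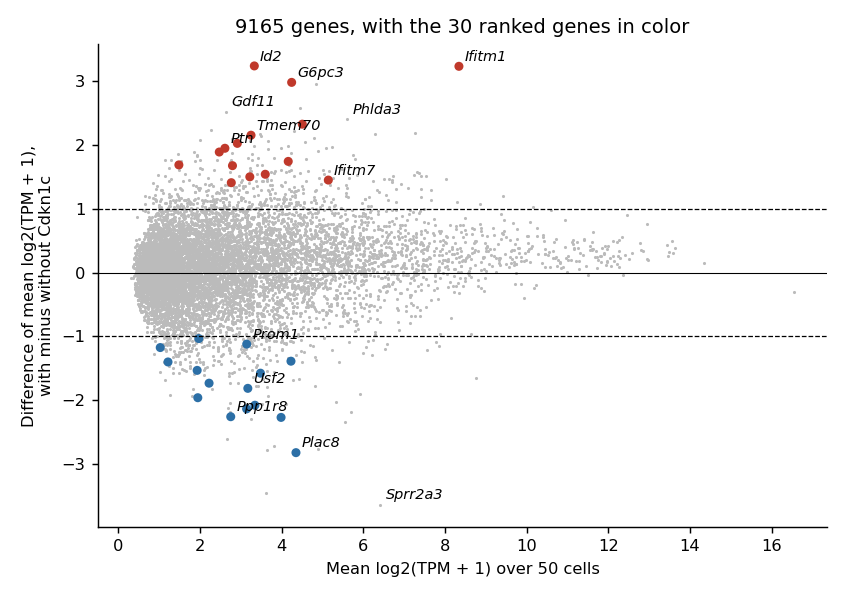
Difference of mean log2(TPM + 1), with minus without Cdkn1c, against the mean over 50 cells for 9165 genes, with the 15 highest-ranked genes in red and the 15 lowest-ranked in blue. Dashed lines mark a difference of 1 either way, most genes lie between them, around a median of 0.089, and the labelled grey points Gdf11, Phlda3 and Sprr2a3 are list members.

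Ranked by the percent of the 561 pairs of 1 cell with and 1 cell without Cdkn1c in which the cell with it was higher, genes reached at most 82.7% and at least 17.8%. The leading gene was Ifitm7, of the interferon-induced transmembrane family. It ran from 17.7 to 183 TPM (median 63.3) in the cells with Cdkn1c and from 0.69 to 108 TPM (median 28.1) in the cells without, a mean difference of 1.45. Its relative Ifitm1 had a wider gap, with 57.9 to 9896 TPM (median 1496) against 0 to 3253 TPM (median 448) and a difference of 3.24. The ranges of both genes overlapped between the groups, but their lowest cells lacked Cdkn1c and their highest cells had it.

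Id2, an inhibitor of basic helix-loop-helix transcription factors and a known target of BMP signaling, reached 1 TPM in 14 of 17 cells with Cdkn1c and 13 of 33 without. It ran from 0 to 1301 TPM (median 107) in the first group and from 0 to 311 TPM (median 0) in the second. The mean difference was 3.24 on the log2 scale, and it was 3.28 in i7 N704 to N707 and 3.95 in N708 to N710. More of the cells with Cdkn1c had Id2, yet 3 of the 17 had less than 1 TPM, among them the cell at 78.19 TPM of Cdkn1c.

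G6pc3, the widely expressed glucose-6-phosphatase, ran from 0.44 to 288 TPM (median 121) against 0 to 283 TPM (median 5.01), a difference of 2.99 that was 4.06 in N704 to N707 and 0.62 in N708 to N710. Tmem70, needed to assemble the mitochondrial ATP synthase, was at a median of 30.1 TPM against 6.12, with a difference of 2.16 and 81.9% of cell pairs. Slc25a51, the mitochondrial carrier of NAD known from human cells, had medians of 34.7 and 3.64 TPM and a difference of 2.03. The groups overlapped for all 3 genes. The 12 tested genes of oxidative phosphorylation had a median difference of 0.28 and 0 members past the fold.

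Ptn, a heparin-binding growth factor (pleiotrophin), was seen in 16 of 17 cells against 20 of 33, at medians of 16.5 and 2.89 TPM. Its difference was 1.95, with 2.22 in N704 to N707 and 0.34 in N708 to N710. Heg1, a mucin-like membrane protein of cell junctions, had a difference of 1.89 and Stx7, a syntaxin of late endosomes, one of 1.50. Also among the 15 were Lmo4, a LIM-only cofactor (1.54), Meaf6, a subunit of histone acetyltransferase complexes (1.69), U2af2, which recognizes the polypyrimidine tract before an exon (1.41), and the nucleic acid-binding Pura (1.68). Meaf6 showed the largest gap in detection of these, in 14 of 17 cells against 10 of 33. Armc10 (1.74) and the deubiquitinase Josd2 (2.33) complete the 15.

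The lowest-ranked gene was Ppp1r8, a nuclear inhibitor of protein phosphatase 1. It reached 1 TPM in 6 of 17 cells with Cdkn1c and 27 of 33 without, at 0 to 27.8 TPM (median 0.065) against 0 to 49.9 TPM (median 16.9). The cell with Cdkn1c was higher in 17.8% of pairs, with a mean difference of -2.26. Usf2, a transcription factor that binds E-boxes, followed at medians of 4.34 and 18.8 TPM, and its difference of -1.82 was -1.46 in N704 to N707 and -3.65 in N708 to N710. Both genes were also at 0 in some cells without Cdkn1c.

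Plac8 had the largest negative difference of the 15, -2.82, with 0 to 463 TPM (median 1.15) against 0 to 263 TPM (median 76.3). Eps8l3, of the Eps8 family of actin regulators, was seen in 10 of 17 cells against 30 of 33, with a difference of -2.27. Prom1, which encodes the stem cell surface protein CD133, had a smaller gap over widely expressed values: 0 to 29.9 TPM (median 4.28) against 0.31 to 47.5 TPM (median 12.9), a difference of -1.12. Prom1 thus lay lower in mean where Cdkn1c was seen, although 15 of the 17 cells had it at 1 TPM or more.

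Rrp7a, which acts in ribosomal RNA processing, was seen in 1 of 17 cells against 13 of 33 (difference -1.18), and Mrps9, a protein of the mitochondrial ribosome, in 9 against 28 (-1.04). The tRNA methyltransferase Trmt2a had a difference of -2.08, and Wdr77, the partner of the arginine methyltransferase PRMT5, one of -1.39. The list of 12 ribosome biogenesis genes held 0 members past the fold upward and 1 downward, Nop16 at -1.67, with a list median of -0.13. Nop16 was 0.46 higher in N708 to N710. Ptpn18 (-1.96), Tprn (-2.14), Zfp629 (-1.73), Zfp719 (-1.53), Maip1 (-1.58) and the collagen prolyl hydroxylase P4ha2 (-1.40) make up the rest.

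**Figure D3:**
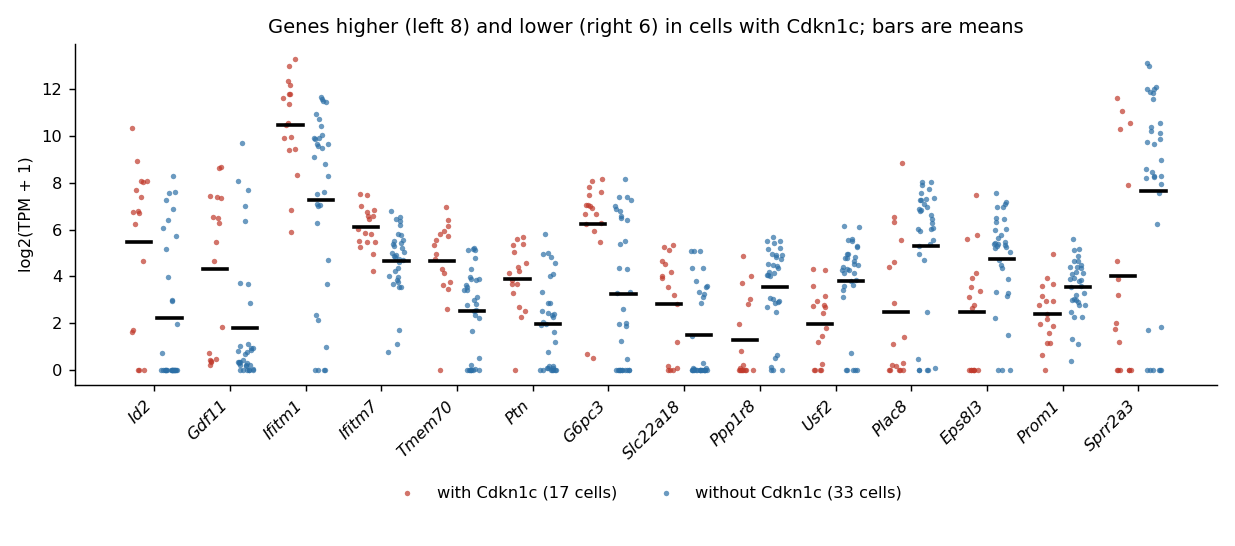
Level in log2(TPM + 1) of 8 genes higher and 6 genes lower in mean with Cdkn1c, each point a cell, red for the 17 cells with and blue for the 33 without, with bars at the group means. Red and blue points overlap for every gene shown, including Ifitm7 at 17.7 to 183 TPM against 0.69 to 108 TPM.

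The other inhibitors of cyclin-dependent kinases were present in both groups. Cdkn1a, a p53 target, was at 0 to 2762 TPM in both, with medians of 154 TPM with Cdkn1c and 130 TPM without, and a mean difference of 0.34. Cdkn1b was at 0 to 141 TPM (median 8.08) against 0 to 61.2 TPM (median 5.48), in 13 of 17 cells against 17 of 33, and its difference of 0.94 lay just under the fold. All 3 CIP/KIP genes were seen together in 11 cells, out of 25 cells with both Cdkn1a and Cdkn1b. Of the INK4 inhibitors, which act on the kinases Cdk4 and Cdk6, Cdkn2d passed the fold at 1.17 with detection in 6 and 7 cells, but it was -1.61 in N708 to N710. Cdkn2a reached 1 TPM in 0 cells, Cdkn2b differed by 0.08, and of 4 tested genes of the list 1 passed the fold, or 0 without N705.

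On the side of the kinases, 14 genes of the list of G1 cyclins, kinases and RB proteins were tested. Of these 0 were past the fold upward and 2 downward, beside 4.77% and 3.07% of all genes, with a median of 0.00. Without N705 0 passed either way. Both genes past the fold were D-type cyclins, which carry growth signals to Cdk4 and Cdk6. Ccnd1 was at 0 to 85.3 TPM (median 18.6) with Cdkn1c and 0 to 231 TPM (median 33.7) without, a difference of -1.11 that was -0.05 in N708 to N710 and -0.54 without N705. Ccnd2 was seen in 6 of 17 cells against 18 of 33, with a difference of -1.08. The third D-type cyclin, Ccnd3, differed by 0.37 and Cdk4 itself by 0.51, so the D-type cyclins did not share a direction.

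Genes of DNA replication were lower in mean with Cdkn1c over all cells and not in each index group. Of 20 S phase genes tested, 0 were past the fold upward and 3 downward, beside 4.77% and 3.07% of all genes. Their median difference was -0.54 beside 0.089 over all genes. With Cdkn1c at 10 TPM or more, 2 were past the fold downward, with a median of -0.11 beside 0.13 over all genes. Mcm2, a subunit of the replicative helicase, was seen in 7 of 17 cells against 22 of 33, at medians of 0.17 and 15.6 TPM and a difference of -1.30. Rrm2, the small subunit of ribonucleotide reductase, was seen in 1 against 10 cells (-1.14), and Pcna, the sliding clamp of DNA polymerases, at medians of 112 and 90.3 TPM had a mean difference of -1.06 that was 0.15 in N708 to N710. The mean over the list was 2.05 ± 1.36 with Cdkn1c and 2.51 ± 1.71 without, a difference smaller than either SD. It was 1.93 ± 1.32 against 1.78 ± 1.15 in N704 to N707 and 2.64 ± 1.66 against 3.38 ± 1.89 in N708 to N710, where 3 cells had Cdkn1c.

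Markers of G2 and mitosis differed little over all cells and in opposite directions in the 2 index groups. Of 18 genes tested 0 passed the fold either way, with a median of -0.12 and a mean level of 1.18 ± 1.56 against 1.29 ± 1.48. That level was 1.15 ± 1.71 against 0.69 ± 0.70 in N704 to N707, a difference of 0.46, and 1.32 ± 0.71 against 2.00 ± 1.85 in N708 to N710, a difference of -0.68. Mki67, the proliferation antigen Ki-67, reached 1 TPM in 5 of 17 cells and 9 of 33, with a difference of 0.06, and Top2a, the topoisomerase that untangles chromosomes, in 5 and 13 cells, with -0.50. Cells with at least 15 of the 30 listed G2/M genes at 1 TPM or more numbered 3 of 17 with Cdkn1c (17.6%, 3.80% to 43.4%) and 7 of 33 without (21.2%, 8.98% to 38.9%), and 7 of these 10 cells carried N708 to N710. Over all cells of those indexes the S phase level was 3.25 ± 1.83, against 1.85 ± 1.21 for N704 to N707. All 6 cells averaged from pairs of libraries also carried N708 to N710. The part of the index or of the averaging in the lower replication genes was not tested.

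The 3 cells with both Cdkn1c and many mitotic genes had 33.23, 15.05 and 3.34 TPM of Cdkn1c. They had 18, 30 and 26 of the 30 G2/M genes at 1 TPM or more, 14, 19 and 19 of the 22 S phase genes, and 17.8, 66.8 and 57.4 TPM of Mki67. The first is the average of a pair of libraries. In the other 14 cells 2 to 8 G2/M genes were seen, so most cells with Cdkn1c had few mitotic transcripts, as did most cells without it. The cell at 577 TPM had 4 of these genes, 0 TPM of Mki67, 497 TPM of Cdkn1a and 141 TPM of Cdkn1b.

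**Figure D4:**
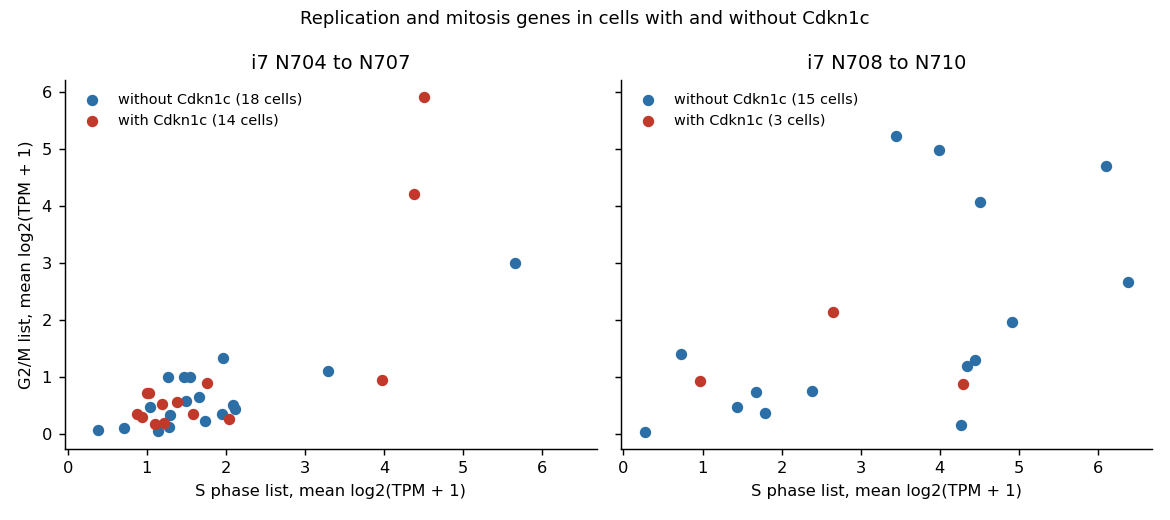
Mean log2(TPM + 1) of the G2/M list against that of the S phase list in each cell, in i7 N704 to N707 (left) and N708 to N710 (right), red with and blue without Cdkn1c. Most red points lie among the blue ones, and 2 red cells on the left and 1 on the right had at least 15 G2/M genes. Those 2 cells on the left lie above every blue cell of that panel in G2/M level.

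The list of quiescence and growth arrest genes was 3.92 ± 0.36 with Cdkn1c and 3.67 ± 0.68 without. Of 21 genes tested, 2 were past the fold upward and 0 downward, beside 4.77% and 3.07% of all genes, with a median of 0.28. Btg2, an antiproliferative gene that is also induced early after stimulation, was at 79.0 to 3957 TPM (median 1240) against 0 to 2677 TPM (median 745), a difference of 1.2. Klf4, a transcription factor that restrains proliferation in the intestine, reached 1 TPM in 17 of 17 cells against 27 of 33, also with 1.2. Foxo3, a transcription factor of stress resistance, differed by -0.10. The list difference of 0.25 was 0.16 in N704 to N707 and 0.28 in N708 to N710, and was 0.18 without the cell of 1316 genes, when 1 gene passed the fold and the median was 0.20.

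Prox1 was at 0.51 to 49.2 TPM (median 23) with Cdkn1c and at 0 to 66.8 TPM (median 10.8) without, in 15 of 17 and 26 of 33 cells at 1 TPM or more. The mean difference of 0.75 was under the fold and under the SDs of 1.8 and 1.9, and it was 0.61 in N704 to N707 and 0.33 in N708 to N710. Prox1 was thus common in both groups. The 2 cells with Cdkn1c and less than 1 TPM of Prox1 were the cells with 30 and 26 G2/M genes, at 0.58 and 0.51 TPM.

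Stem cell genes shared no direction. Of 14 crypt stem cell genes tested, 0 were past the fold upward and 2 downward, beside 4.77% and 3.07% of all genes. The 2 were Prom1 and the Myc-responsive Cdca7 (-1.07). The list median was -0.11, and 1 passed without N705. Lgr5 was at 0 to 15.1 TPM (median 2.23) with Cdkn1c and 0.02 to 16.1 TPM (median 2.12) without, a difference of -0.29, and Ascl2, the stem cell transcription factor, differed by 0.10. In the list of reserve stem cell genes, tested for 10 members, 2 were past the fold upward with a median of -0.05, and 1 passed without the cell of 1316 genes or without N705. These were Mex3a, an RNA-binding protein of slowly cycling Lgr5-positive cells, in 14 of 17 cells against 22 of 33 (1.23), and Sox9, a crypt base transcription factor (1.06). Mex3a was 0.65 higher in N704 to N707 and 2.87 in N708 to N710. Hopx and Bmi1, reserve stem cell markers, differed by -0.21 and -0.37. The reserve list level differed by -0.01 in N704 to N707 and 0.80 in N708 to N710, and the crypt stem cell list level by -0.14 and 0.16. With Cdkn1c at 10 TPM or more, the median was 0.43 for the reserve list and -0.07 for the crypt stem cell list, beside 0.13 over all genes.

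Among 15 Wnt target genes, 3 were past the fold upward and 0 downward, beside 4.77% and 3.07% of all genes. Their median was 0.52 beside 0.089 over all genes. Tcf7, a transcription factor that partners beta-catenin, was at medians of 10.0 and 3.78 TPM, with a difference of 1.37 that was 1.16 and 1.60 in the i7 groups. Tbx3, a T-box repressor, was seen in 17 of 17 cells against 27 of 33 (1.35), and Notum, a secreted enzyme that inactivates Wnt ligands, in 17 against 30 (1.06). Notum was at 0.78 in N704 to N707 and 0.63 in N708 to N710, under the fold in each. Axin2 and Nkd1, feedback inhibitors that are used most often as readouts of beta-catenin, differed by -0.11 and 0.25, so the Wnt targets were not higher throughout. Leaving out the cell of 1316 genes left 2 of the list past the fold, and in cells of matched genes per cell 1 passed, with a median of 0.15.

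The TGF-beta and BMP list held 15 tested genes, with a median of 0.47. Of them 2 were past the fold upward and 0 downward, beside 4.77% and 3.07% of all genes. One was Id2, described above. The other was Gdf11, a secreted ligand of the TGF-beta family that signals through activin-type receptors. It ran from 0.14 to 411 TPM (median 43.9) with Cdkn1c and from 0 to 821 TPM (median 0.335) without, in 11 of 17 cells against 10 of 33 at 1 TPM or more. The highest Gdf11 value thus belonged to a cell without Cdkn1c, while the mean difference was 2.53, with 2.85 in N704 to N707 and 0.85 in N708 to N710. The related Id1 and Id3 differed by 0.31 and 0.69 and the ligand Bmp7 by 0.87. Of the Notch pathway, 9 genes were tested, 0 passed the fold, and its target Hes1 was at -0.60.

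Immediate early genes, which are transcribed within minutes of a stimulus or of dissociation, were 8.45 ± 0.96 with Cdkn1c and 7.86 ± 1.41 without. This list level differed by 0.79 in N704 to N707 and by 0.09 in N708 to N710. Of 14 tested, 2 were past the fold upward, Btg2 and Ier3 (1.04), and 0 downward, beside 4.77% and 3.07% of all genes. The list median was 0.61. Without the cell of 1316 genes 0 passed the fold and the median was 0.59, and without N705 1 passed upward and 1 downward with a median of 0.34. The AP-1 subunits Fos and Jun were at 0.61 and 0.83, and Fos was -0.66 in N708 to N710. Dnajb1, a heat shock co-chaperone, was the gene of 11 chaperones tested that passed the fold, at medians of 418 and 200 TPM and a difference of 1.51.

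Of 10 tested genes of the regenerative, fetal-like epithelium that appears after injury, 3 were past the fold downward and 1 upward, with a median of -0.59. The shares over all genes were 3.07% and 4.77%. Without N705 these counts were 2 and 0, with a median of -0.26. With Cdkn1c at 10 TPM or more they were 2 and 2, with a median of -0.10, so the lower direction depended on the threshold. Sprr2a3, of a family of cornified envelope proteins, was at 0 to 3186 TPM (median 2.95) with Cdkn1c and 0 to 9019 TPM (median 381) without, a difference of -3.64. In N704 to N707 that difference was -4.26 and in N708 to N710 it was 0.40, so its direction was not shared. Sprr2a genes have near-identical copies, and counting may have split reads among them. Ly6a, the surface antigen Sca-1, was seen in 2 of 17 cells against 10 of 33 (-1.46, and 0.42 in N708 to N710), and Anxa1, an annexin, in 8 against 24 (-1.08). Clu, which marks revival stem cells, was at -0.35.

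Members of other lists also passed the fold. Phlda3, a p53 target that blocks Akt, was at medians of 205 and 64.3 TPM with a difference of 2.41, but it was 3.60 in N704 to N707 and -1.24 in N708 to N710. The 12 p53 targets tested had a median of 0.37, with Phlda3 the 1 past the fold, and their mean level differed by 0.79 in N704 to N707 and -0.64 in N708 to N710. Tsc22d3, a glucocorticoid-induced leucine zipper protein, was at 1.02 over all cells and -0.12 in N708 to N710, and Gstm1, a glutathione transferase of drug handling, at 1.57, with 1.85 and 1.45 in the i7 groups. Of 13 secreted signals and matrix genes tested, 2 were past the fold upward and 0 downward, beside 4.77% and 3.07% of all genes. The 2 were Ptn and the Wnt ligand Wnt6 (8 of 17 cells against 10 of 33, 1.02), and the list median was 0.50. In that list 1 passed without the cell of 1316 genes. Glycolysis, hypoxia, and the Polycomb and DNA methylation list had 0 members past the fold and medians of 0.07, -0.03 and 0.02.

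Genes around Cdkn1c on chromosome 7 shared no direction at the threshold of 1 TPM. Of 9 tested genes of the imprinted domain, 1 was past the fold, and the median was -0.01. That gene was the neighbor Slc22a18, a solute carrier at chr7:143473736-143499334, which like Cdkn1c is imprinted with an active maternal copy. It was at 0 to 39.1 TPM (median 10.7) with Cdkn1c and 0 to 33.2 TPM (median 0.02) without, in 12 of 17 cells against 13 of 33, a difference of 1.32 that was 0.74 without N705. Nap1l4, the next gene with values here, differed by -0.54, and Kcnq1, Cd81 and Tssc4 by -0.33, 0.51 and -0.17. With Cdkn1c at 10 TPM or more, 2 of the 9 genes were past the fold upward and 0 downward. Their median was then 0.42 beside 0.13 over all genes. Within the 17 cells, Spearman's correlation of the level of the domain with Cdkn1c was 0.26. Igf2, a fetal growth factor of the adjoining imprinted domain, reached 1 TPM in 0 cells and H19 in 1 cell of each group. Phlda2 and Kcnq1ot1 were not found among the genes with values, so they were not analysed here. Of 15 other imprinted genes outside this domain, 7, Dlk1 and Meg3 among them, reached 1 TPM in 0 cells.

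Markers of other cell types were at like median levels in both groups, but 1 cell without Cdkn1c stood out. Of 16 enteroendocrine markers, 8 were under 1 TPM in all cells, Chga, Neurod1 and Neurog3 among them. The 2 tested, Fev and Isl1, gave 0 past the fold. The summed level of the list was 25.2 to 144 TPM with Cdkn1c and 13.8 to 130 TPM without. Of 13 tuft cell markers, 6 were under 1 TPM throughout, including Pou2f3 and Trpm5, and the list summed to 0.36 to 233 TPM against 0 to 256 TPM. The 3 tested, Avil, Plcg2 and Sh2d6, gave 0 past the fold. Colonocyte markers, 7 of 11 under 1 TPM throughout, summed to medians of 4.90 and 4.72 TPM, and goblet markers to 15.5 and 17.9 TPM. Colonocyte sums ran up to 112 TPM with and 826 TPM without Cdkn1c, and goblet sums to 118 and 2227 TPM. Paneth and deep crypt secretory markers had medians of 2295 and 2081 TPM. These medians differed little beside their ranges. The highest cell for the Paneth list, at 290240 TPM, was in the group without Cdkn1c and had 3935 genes seen. It also had the highest mean level of the goblet list, 4.38, and of the colonocyte list, 1.71.

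Many markers of cells that the sort should remove were under 1 TPM in all cells, but others were seen. The summed endothelial level was at most 13.3 TPM with and 4.64 TPM without Cdkn1c, with Pecam1, Kdr, Tek and Cldn5 under 1 TPM in all cells. Fibroblast and muscle markers had medians of 22.3 and 5.29 TPM, up to 94.3 and 148 TPM, with Col1a2, Col3a1, Dcn, Lum and Des under 1 TPM. Immune markers summed to a median of 209 TPM (0 to 473) against 109 TPM (0 to 300). Of 3 immune markers tested, 2 were higher in mean with Cdkn1c and 1 lower, with a median difference of 0.19, and 1 passed the fold. That was Cd14, a coreceptor for lipopolysaccharide, at medians of 140 and 57.5 TPM with a difference of 1.49. Ptprc, Cd3e and S100a9 were under 1 TPM in every cell.

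**Figure D5:**
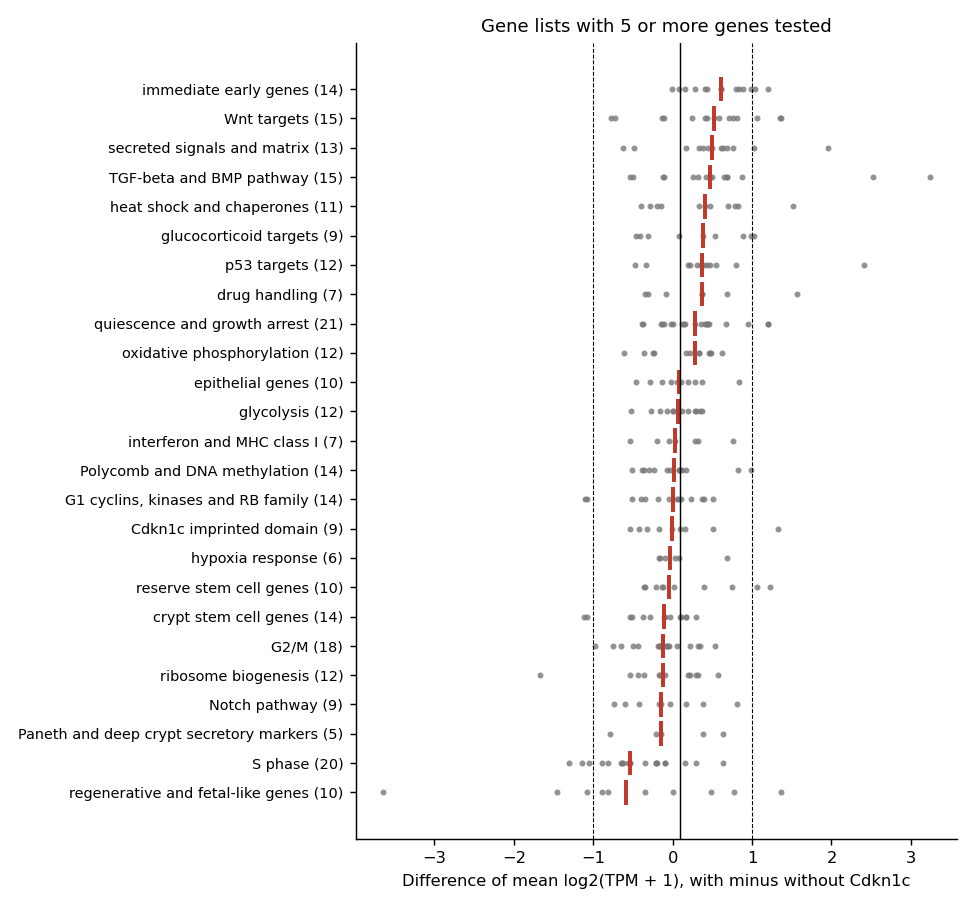
Difference of mean log2(TPM + 1), with minus without Cdkn1c, for each tested member (grey points) of the gene lists with 5 or more genes tested, with the list median as a red bar and the number tested in parentheses. The solid line is the median of all genes at 0.089 and dashed lines mark 1 either way. Medians of the lists shown run from -0.59 for the regenerative genes to 0.61 for the immediate early genes.

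Within the 17 cells, the level of Cdkn1c ran with few of these genes. Over the 34 lists, Spearman's correlation of the list level with Cdkn1c lay between -0.24 and 0.62, and the highest value was that of the regenerative genes (Pearson's r 0.55), whose list mean was 3.55 ± 0.65 with Cdkn1c and 4.01 ± 1.32 without. For the S phase and G2/M lists this correlation was 0.11 and 0.01, for Prox1 0.20, for Id2 -0.13 and for Ifitm7 -0.25. With the number of genes seen per cell it was 0.23. The 17 points share a mouse, and their depth is unknown.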

How the data were processed

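Single-cell RNA-seq libraries were deposited by the authors as a table of TPM for 24410 Ensembl gene IDs in 56 libraries, made, per the submitters' processing notes, with RSEM 1.2.31 and Bowtie2 2.2.9 after bcl2fastq 1.8.4, on the build GRCm38.p4. Settings, annotation release and strand use were not stated in these notes or in the labels, and TPM carry no depth. Columns were matched to samples by index pair. GENCODE M21 names for GRCm38 matched 24235 IDs and gave the coordinates.

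From these values, libraries were correlated on log2(TPM + 1) over genes reaching 1 TPM in 20% of them, and the 6 pairs whose Pearson's r exceeded 0.9 were averaged. Cells with Cdkn1c at 1 TPM or more were compared with the others by the difference of mean log2(TPM + 1), called at 1 either way, and by the percent of cell pairs. No p-value was computed, because the cells came from 1 mouse and were grouped by a measured value. Shares have exact Clopper-Pearson 95% intervals for counting error. No doublet caller was run, since cells were sorted singly.

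Genes were named as the 15 highest and 15 lowest by percent of cell pairs among genes past the fold with plain symbols and the same sign in both i7 groups, with Cdkn1a, Cdkn1b, Prox1, Lgr5, Ascl2, Hopx, Mki67, Top2a and Hes1, and with members of 34 gene lists (the 2 highest and 2 lowest and those needed for counts). Further list members, such as Foxo3, Bmi1 and the neighbors of Cdkn1c other than Slc22a18, were picked with their values in view. Some list members that enter the counts are not reported here by name. The groups, lists and rules were chosen with earlier results of these data known. Alternatives were other Cdkn1c thresholds, pseudocounts and gene filters, libraries as cells, other scaling, single cells left out, matched genes per cell and index groups. Leaving out N705 and taking the mean of the 2 i7 groups were added after the data were seen. Promoter motifs were searched and are not reported, since these data hold no measurement at promoters. The script was tested on simulated data. The software was numpy 2.4.6, SciPy 1.17.1, pandas 2.3.3 and matplotlib 3.10.9 under Python 3.11.15.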

Additional observations from a re-analysis of the deposited data

How the results depend on the processing

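The share of cells with Cdkn1c was 16.7% in i7 N708 to N710. The count of higher genes, 437, was 658 with Cdkn1c at 10 TPM or more, 1209 and 63 with pseudocounts of 0.1 and 10, 761 in i7 N704 to N707, 1445 in i7 N708 to N710, and 1255 in i5 N502 to N505. The count of lower genes, 281, was 930 and 25 with those pseudocounts, 169 among genes reaching 1 TPM in 50% of cells, 439 without ribosomal protein genes and Gm10925, 586 in cells of matched genes per cell, 425 and 1328 in the i7 groups, 466 and 702 in i5 N502 to N505 and N506 to N517, and 461 without N705. Counts within subsets rest on fewer cells. For the other changes the cause was not tested.

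Of 66 named genes, those past the fold turned sign in index subsets only, over the 15 of 17 alternatives that can move them (gene filters cannot). The 15 highest and 15 lowest had been chosen for the same sign in both i7 groups. They could therefore not turn in either i7 group or in the mean of the groups. In i7 N708 to N710, with 3 cells having Cdkn1c, the sign turned for Cdkn2d (-1.61), Phlda3 (-1.24), Tsc22d3 (-0.12), Ly6a (0.42), Nop16 (0.46), Sprr2a3 (0.40) and Pcna (0.15). In i5 N502 to N505 it turned for Cdca7 (0.20) and Pcna (0.12), and in N506 to N517 for Cdkn2d (-1.28) and Klf4 (-0.024). The higher share of called genes, 60.9%, was 48.9% without the cell of fewest genes, 41.9% in cells of matched genes per cell, 71.6% with a pseudocount of 10, 72.9% in i5 N502 to N505 and 48.1% in N506 to N517. The median difference over all genes, 0.089, was 0.24 in i5 N502 to N505 and between -0.03 and 0.15 under the other alternatives. The S phase list difference, -0.46, was 0.15 in N704 to N707 and negative otherwise. The G2/M difference was -0.68 to 0.46, that of the quiescence list -0.13 (i5 N506 to N517) to 0.66, and that of Prox1 0.33 to 1.1. Unknown depth limits every share, since a cell listed at 0 may hold the transcript. No paired analysis was possible because the labels give 1 group.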
